A study of Mus musculus with 47 samples.

Results

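The chemokine system of mouse T-cell precursors was described in 47 RNA-seq libraries, as the genes whose symbols mark them as chemokines or as chemokine receptors. A gene was taken when its symbol began with Ccl, Cxcl, Xcl, Cx3cl, Ccr, Cxcr, Xcr or Cx3cr, followed by a number and at most 1 letter. Described here are 30 of the 17754 genes in the table, with 29 different symbols because Ccl25 had 2 entries. There were 13 receptors and 17 ligand entries. Values are FPKM, fragments per kilobase of transcript scaled to library size, so that levels of different genes can be set beside each other. The lowest value in the table, 0.1 FPKM, is a floor and stands for a gene that was not detected.

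Most cells came from fetal liver of mouse embryos of day 13.5 and grew on OP9 stromal cells that carry the Notch ligand Delta-like 1 (DL1) or Delta-like 4 (DL4), with the cytokines Flt3L and IL-7. The knockout group held 14 libraries of cells homozygous for a floxed Bcl11b gene, 8 on DL1 and 6 on DL4. Its product, a zinc-finger transcription factor, first appears in precursors as they commit to the T lineage. The control group held 11 libraries of Bcl11b-intact C57BL/6 (B6) cells, 8 on DL1 and 3 on DL4, and a Cre retrovirus had been added to both groups. The IL-7 level had been reduced in 4 knockout and 3 control cultures. All 3 of those controls and 3 of those 4 knockout libraries are from the earliest title year, and the growth protocol says that the reduction was given up for its effect on cell recovery and RNA quality. Per the protocol, floxed cells were sorted for the Kit-high DN2a phenotype and controls for the Kit-intermediate DN2b phenotype, so the sort differs together with the genotype. By title 8 knockout libraries were DN2a, 5 DN2 and 1 DN2b, and 3 controls were DN2 and 8 DN2b.

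Further fetal liver cells, wild type (WT) by the column headers and without a listed Cre virus, were grown on DL1. They were sorted as DN2a (4 libraries) or DN2b (2 libraries), the stages before and after commitment. The first DN2b library and its inhibitor-treated partner are DN2b in the stage label and DN3 in the title. For each stage 2 further libraries had received a gamma-secretase inhibitor (GSI, 1 microM) for the last 12 hours, an agent that stops Notch from being cleaved and so from signalling. Thymic DN3 cells, the next stage, were sorted straight from the thymus of 3 kinds of mice with intact Bcl11b: one with Cre driven by Lck (LckCre), one with Cre-ERT2 and floxed but undeleted Bcl11b, and one with Cre-ERT2 alone. Cre-ERT2 is expressed from the ROSA26 locus in all tissues and acts after tamoxifen is given. Cre-ERT2 DN3 cells treated with 100 nM 4-OH tamoxifen were also cultured on DL4, giving 2 control libraries (days 3 and 4) and 1 knockout library (day 4). Single libraries were made of LckCre knockout thymocytes of the DN2 stage and of knockout and control bone marrow cultures on DL4, in which Cre-ERT2 had been induced with tamoxifen. The other 3 were fetal liver cultures of day 12 on DL1, titled DN2b and transduced with a vector 36 hours before harvest. They held control cells with an empty vector, knockout cells with an empty vector and knockout cells with a Bcl11b vector. The labels do not always say which libraries came from separate animals, so the p-values measure the spread between libraries, which may be partly technical.

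Chemokines are small secreted proteins that guide migrating cells, and their receptors are 7-helix proteins that signal through G proteins of the Gi class. Precursors use this system to settle the thymus and to move through it: Cxcr4, Ccr7 and Ccr9 receive Cxcl12, the Ccr7 ligands and Ccl25 from thymic and stromal cells. Mature lymphoid and myeloid cells use other members to reach lymph node follicles or inflamed tissue, such as Cxcr5, Ccr2 and Cx3cr1.

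The libraries themselves carried the following features. Bcl11b, the targeted gene, ran from 8.77 to 37.9 FPKM in the 14 knockout libraries and from 16.9 to 84.4 FPKM in the 11 controls. These ranges overlap, and the gene-level value does not show which exons were read. The bone marrow library labelled as knockout had 45 FPKM of Bcl11b and its control had 44.9 FPKM, so the level does not separate that pair. In the 2 DN2b libraries several members differed widely: in the first of them Ccr2 and Ccr7 were at the floor and Ccr9 was at 40.5 FPKM, and in the second these were 8.84, 31.4 and 1.35 FPKM. Sums over 10 marker genes of stromal cells ran from 24.1 to 122 FPKM. Sums over 10 NK and innate lymphoid markers ran from 622 to 1297 FPKM in the knockout libraries, and the 161 to 499 FPKM of the controls lay below that range. The 8 T-lineage markers summed to 333 to 1100 FPKM in the knockout, 1357 to 2979 FPKM in the controls, 242 to 672 FPKM in DN2a cells and 2890 to 3819 FPKM in ex vivo DN3 cells, with none below 1 FPKM throughout any of these groups.

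Of the 30 entries, 5 stayed below 1 FPKM in all 47 libraries and are taken as not expressed: the ligands Cx3cl1, Ccl1, Cxcl1 and Cxcl5, and the scavenging receptor Cxcr7, now called Ackr3. The other 25 reached 1 FPKM in at least 1 library, 12 reached 10 FPKM, and 3 (Cxcr4, Cxcr2 and the first Ccl25 entry) were at 1 FPKM or more in all 47. Cxcr4, the receptor that binds Cxcl12, was the most abundant member by median, with 95.3 FPKM over all libraries and a range of 56.1 to 146 FPKM. By median level the receptors followed in the order Ccr7 (18.9 FPKM), Ccr9 (18.7 FPKM), Ccr2 (9.73 FPKM), Ccr4 (9.36 FPKM), Cxcr5 (6.27 FPKM), Cxcr2 (3.70 FPKM) and Cx3cr1 (1.90 FPKM). Below these came Ccr8 (1.54 FPKM), Cxcr6 (1.03 FPKM), Ccr1 (0.524 FPKM) and Cxcr3 (0.37 FPKM). Cxcr4 stood above Ccr7 in range as well, since no library had over 37.5 FPKM of Ccr7, and all later neighbours in this order overlapped across libraries. Among the ligands the highest medians were those of Cxcl12 (8.43 FPKM), Ccl5 (6.41 FPKM) and Ccl25 (5.19 FPKM).

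Members under 10 FPKM that no fitted comparison called are given by their highest values. The receptor Cxcr2, which binds neutrophil-attracting chemokines, peaked at 6.45 FPKM. Cxcr6, the receptor for Cxcl16, reached 4.41 FPKM and was at 1 FPKM or more in 24 libraries. Cxcr3, a receptor of effector T cells, reached 1.39 FPKM and passed 1 FPKM in 3 libraries. For the ligands the highest values were 8.69 FPKM for the first Ccl25 entry, 7.20 FPKM for Ccl4, 3.84 FPKM for Ccl2, 2.78 FPKM for Ccl7, 2.41 FPKM for Cxcl10, 2.34 FPKM for the second Ccl25 entry and 1.92 FPKM for Ccl6.

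**Figure D1:**
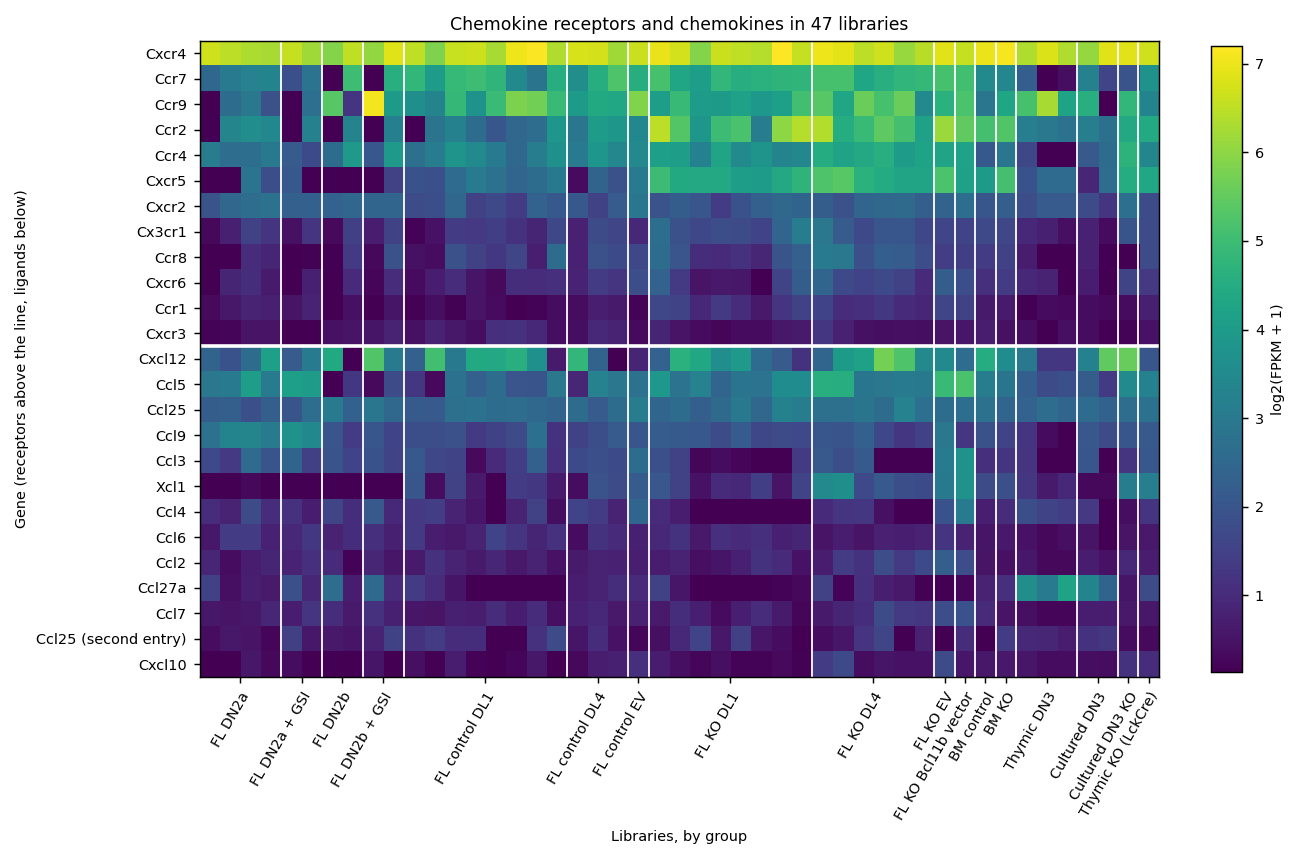
Level of the 25 expressed members, as log2(FPKM + 1), in each of the 47 libraries (columns, by group; FL, fetal liver; KO, Bcl11b knockout; EV, empty vector; BM, bone marrow). Cxcr4 is high in every library (56.1 to 146 FPKM), Cxcr5 and Ccr2 are higher in most knockout columns, and Ccl27a is highest in thymic DN3 cells.

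The comparison of knockout with control cells asks which members differ between them in culture from fetal liver. Sort and mouse line differ together with the genotype. In the fetal liver cultures 5 receptors and 1 ligand were higher in the knockout, and none of the members that met the filter was called lower. Cxcr5 and Ccr2 differed most, with smaller differences for Ccr1, Cx3cr1, Ccr4 and the ligand Ccl5. The receptors used in the thymus, Cxcr4, Ccr7 and Ccr9, were not called. Of the 30 entries, 18 reached 1 FPKM in at least 11 of the 25 libraries and were tested, and 6 of the 18 were called at an adjusted p under 0.05 (limma, Benjamini-Hochberg over all 12678 genes tested, with stroma and IL-7 as covariates). Among all genes tested 9.8% were called higher and 7.1% lower. The median difference in log2(FPKM + 1) was 0.39 over the 18 members and 0.04 over all genes tested. Because a low gene passes the filter mostly through the group in which it is high, the 18 are not all members. Without the filter 7 members were called, 6 higher and 1 lower, beside 1399 genes higher and 1003 lower of all 17754 (13.5% in either direction).

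Cxcr5, the receptor for the follicle chemokine Cxcl13, ran from 15.5 to 40.3 FPKM in the 14 knockout libraries, with a median of 20.3 FPKM. In the 11 controls it ran from 0.258 to 7.08 FPKM, with a median of 4.48 FPKM. The 2 groups did not overlap, which was so for 1 of the 30 entries, Cxcr5, and for 1.35% of all 17754 genes. The means were 23.4 ± 7.64 and 4.31 ± 2.07 FPKM (SD), a difference of 2.32 in log2(FPKM + 1) (SE 0.23, adjusted p = 4.43e-08, limma). It was higher in the knockout in 9 of 9 pairs that share title date, stroma and IL-7. The gene's span overlaps that of Bcl9l, a coactivator of Wnt signalling, on the opposite strand in the GENCODE annotation of build GRCm38. Library construction lists no step that keeps strand, so reads from the shared stretch cannot be assigned to one of the genes. Bcl9l was also higher in the knockout, 32.8 ± 8.69 against 19.3 ± 5.70 FPKM (SD), by 0.80 in log2(FPKM + 1) (SE 0.16, adjusted p = 0.000508, limma), and its part in the Cxcr5 value was not tested.

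Ccr2, the receptor through which monocytes follow Ccl2, ran from 7.54 to 89.9 FPKM in the knockout libraries, with a median of 34.2 FPKM. In the controls it ran from the floor of 0.1 to 15.3 FPKM, with a median of 6.17 FPKM. The groups overlapped because 1 DL1 knockout library of day 9 (replicate 6, 7.54 FPKM) and another of that day (replicate 3, 13.7 FPKM) lay within the control range. The means were 42.1 ± 27.2 and 7.44 ± 4.81 FPKM (SD), a difference of 2.28 (SE 0.40, adjusted p = 0.00014, limma), with the knockout higher in 9 of 9 pairs. Ccr1, which binds Ccl3, Ccl5 and Ccl9, was low everywhere: 0.524 to 2.09 FPKM in the knockout (median 1.24 FPKM) and 0.104 to 0.65 FPKM in the controls (median 0.291 FPKM). The difference was 0.81 (SE 0.11, adjusted p = 8.32e-06, limma; higher in 9 of 9 pairs). Because 11 knockout libraries and 0 controls reached 1 FPKM, Ccr1 met the filter through the knockout alone, so that its place among the 6 called of 18 is a description and no support. In the fit without the filter, over all 17754 genes, its adjusted p was 5.07e-06 (limma).

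Cx3cr1, the fractalkine receptor of monocytes and NK cells, ran from 1.92 to 7.54 FPKM in the knockout (median 2.86 FPKM) and from 0.151 to 2.39 FPKM in the controls (median 1.47 FPKM). The difference was 0.92 (SE 0.20, adjusted p = 0.00164, limma), and the knockout was higher in 9 of 9 pairs, by between 0.03 and 2.50. Cx3cr1 spans several other genes in the annotation. Of these, Csrnp1 (24 and 24.3 FPKM) and Wdr48 (16.1 and 16.5 FPKM) had differences of -0.01 and -0.02 and were not called (adjusted p = 0.976 and 0.929, limma). Ccr4, a receptor of skin-homing and type 2 T cells, ran from 8.39 to 22.8 FPKM in the knockout (median 16.2 FPKM) and from 4.79 to 13.4 FPKM in the controls (median 7.55 FPKM). The difference was 0.65 (SE 0.15, adjusted p = 0.00325, limma), and 7 of 9 pairs were higher. With 7 culture pairs as blocks, chosen after seeing the data, it no longer passed (0.67, adjusted p = 0.0713).

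The promoters of called receptors that the RefSeq table for GRCm38.p6 holds are shown because all of these genes were higher in the knockout. That of Ccr9, which was not called, is shown beside them because it lies in the same group of receptor genes on chromosome 9. Each line gives the 250 bases before the gene's start, 5′ to 3′ on the gene's strand, and the coordinates are of GRCm38.p6, not of mm9, the build of the expression table. Capitals mark matches on either strand to the RUNX core TGTGGT, the core AGATAA of Gata factors, the AP-1 core TGANTCA, the E-box CAGCTG and the TATA box sequence TATAAA, and no match overlapped another in these 5 windows.
Ccr2, chr9:124101933-124102182, plus strand: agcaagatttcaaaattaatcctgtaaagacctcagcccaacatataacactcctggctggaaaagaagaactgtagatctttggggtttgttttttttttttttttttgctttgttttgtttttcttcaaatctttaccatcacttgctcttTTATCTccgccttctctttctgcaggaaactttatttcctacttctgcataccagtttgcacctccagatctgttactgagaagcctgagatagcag
Ccr1, chr9:123968693-123968942, minus strand: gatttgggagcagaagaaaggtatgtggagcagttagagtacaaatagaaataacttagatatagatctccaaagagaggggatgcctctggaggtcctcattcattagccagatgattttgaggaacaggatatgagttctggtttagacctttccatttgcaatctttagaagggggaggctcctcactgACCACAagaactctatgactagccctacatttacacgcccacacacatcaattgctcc
Cx3cr1, chr9:120068297-120068546, minus strand: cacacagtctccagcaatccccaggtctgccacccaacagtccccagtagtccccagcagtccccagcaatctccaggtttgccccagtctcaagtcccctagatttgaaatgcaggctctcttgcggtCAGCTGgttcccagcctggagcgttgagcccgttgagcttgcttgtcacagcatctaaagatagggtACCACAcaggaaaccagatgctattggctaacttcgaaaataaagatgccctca
Ccr4, chr9:114496545-114496794, minus strand: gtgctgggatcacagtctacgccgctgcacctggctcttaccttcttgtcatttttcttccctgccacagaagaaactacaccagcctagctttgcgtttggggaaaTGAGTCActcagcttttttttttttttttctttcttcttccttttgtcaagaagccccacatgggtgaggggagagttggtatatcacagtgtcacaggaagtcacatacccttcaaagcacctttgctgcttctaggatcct
Ccr9, chr9:123766961-123767210, plus strand: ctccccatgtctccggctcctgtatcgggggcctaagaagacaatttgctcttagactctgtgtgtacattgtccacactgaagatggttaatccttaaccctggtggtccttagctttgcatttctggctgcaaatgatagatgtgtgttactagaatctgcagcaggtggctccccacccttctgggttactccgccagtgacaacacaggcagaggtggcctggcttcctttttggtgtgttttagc
The RUNX core is found in the windows of Ccr1 and Cx3cr1, 58 and 54 bases before the start, the GATA core in that of Ccr2, 97 bases before it, and the AP-1 core in that of Ccr4, 143 bases before it. Cx3cr1 also holds the E-box, 121 bases before its start, and the Ccr9 window holds none of the 5. No core is shared by all 4 called receptors. Over all 32851 promoter windows of 250 bases in the table, 14.0% hold the RUNX core, 9.99% the GATA core, 6.75% the AP-1 core, 13% the E-box and 12.4% the TATA box. Among the 22 member genes with a window, 7 hold the RUNX core, 4 the GATA core, 4 the AP-1 core, 2 the E-box and 5 the TATA box. A match describes these letters only.

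The other receptors that were tested did not pass. Ccr9, which responds to thymic Ccl25, ran from 10.5 to 48.1 FPKM in the knockout (median 18.1 FPKM) and from 9.09 to 54.6 FPKM in the controls (median 20.6 FPKM), a difference of -0.01 with a 95% interval of -0.59 to 0.56. Ccr7 ran from 15.9 to 34.7 FPKM and from 6.20 to 37.5 FPKM, with a difference of 0.33 (interval -0.11 to 0.77). Cxcr4 ran from 58.7 to 146 FPKM and from 56.1 to 141 FPKM, with a difference of 0.06 (interval -0.25 to 0.36). For Ccr9 and Cxcr4 the knockout and control ranges nearly coincide, and 4 of the 11 controls had less Ccr7 (6.2 to 15.2 FPKM) than any knockout library. Ccr8, a receptor of type 2 and regulatory T cells, had medians of 2.97 and 1.82 FPKM (0.51, interval -0.03 to 1.05, adjusted p = 0.203, limma). Cxcr6 had medians of 1.93 and 1.03 FPKM (0.46, interval 0.02 to 0.90, adjusted p = 0.159), and Cxcr2 3.79 and 2.57 FPKM (0.26, interval -0.03 to 0.55, adjusted p = 0.224).

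Of the ligands, Ccl5, a product of NK and effector T cells, was the one called. It ran from 4.41 to 22.5 FPKM in the knockout (median 7.11 FPKM) and from 0.253 to 8.67 FPKM in the controls (median 3.89 FPKM). The difference was 1.12 (SE 0.30, adjusted p = 0.00888, limma), with 7 of 9 pairs higher. With the 9 pairs as blocks it was 1.10 and no longer passed (adjusted p = 0.0822, limma). Ccl3, an inflammatory ligand of Ccr1, pointed the other way: knockout libraries ran from 0.1 to 3.43 FPKM (median 0.249 FPKM) and controls from 0.236 to 3.98 FPKM (median 2.12 FPKM). Its difference of -0.68 did not pass (SE 0.26, adjusted p = 0.0794, limma), with 7 of 9 pairs lower. It passed without the third DL4 knockout (adjusted p = 0.0313) or without the fourth DL1 control (adjusted p = 0.039). Ccl4, a related inflammatory ligand and the neighbour of Ccl3, did not reach the filter: its median was at the floor in the knockout and 0.78 FPKM in the controls, and it was lower in 9 of 9 pairs. Xcl1, a ligand made by NK and CD8 T cells, had medians of 2.12 and 1.42 FPKM, with 9.98 and 11.6 FPKM in the first 2 DL4 knockout libraries (0.50, interval -0.05 to 1.05, adjusted p = 0.227). Ccl9, a myeloid chemokine, had medians of 2.70 and 2.55 FPKM (0.11, interval -0.20 to 0.42). Ccl25 differed by 0.26 (adjusted p = 0.154), Cxcl12 by 0.31 with a wide interval of -0.86 to 1.48, and the second Ccl25 entry by -0.11 (adjusted p = 0.775).

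**Figure D2:**
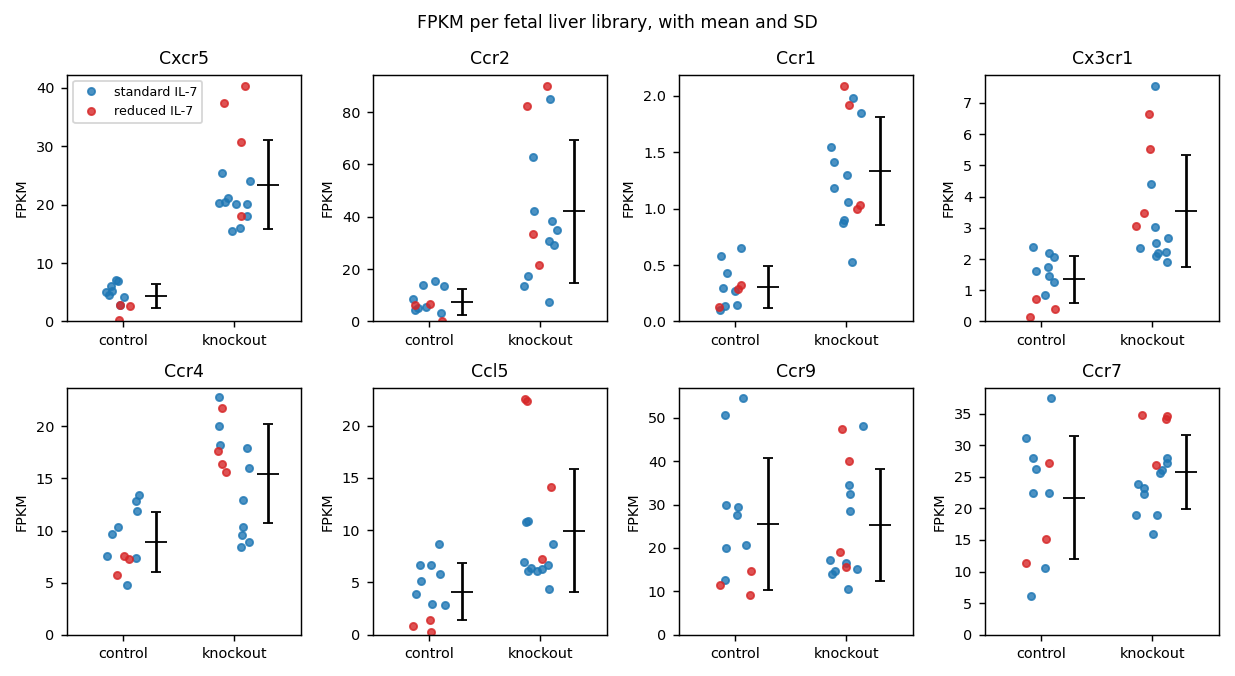
FPKM of the 6 members called in the knockout comparison and of Ccr9 and Ccr7, in each of the 11 control and 14 knockout libraries of fetal liver cells (points, coloured by IL-7 level), with the mean and SD beside them. Cxcr5 is the panel without overlap (15.5 to 40.3 against 0.258 to 7.08 FPKM), and Ccr9 covers about the same range in both groups.

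Marker genes of other cells differed between the same groups. Of the 10 NK and innate lymphoid markers, 7 were tested and 5 were higher in the knockout, with the receptor adaptors Tyrobp (264 ± 93.6 against 34.9 ± 26.8 FPKM, SD) and Fcer1g (308 ± 68.4 against 53.6 ± 30.0 FPKM, SD) making up most of the sum and the NK genes Prf1 and Ncr1 below 1 FPKM in all 14 knockout libraries. Over the 47 libraries, which share the normalization, Ccr2 followed the NK sum (Spearman 0.76) about as closely as the mast and basophil sum (0.75). For Cxcr5 these were 0.69 and 0.62. Ccl5 followed the NK (0.78), megakaryocyte (0.72) and myeloid sums (0.69). Of the myeloid markers 2 of 6 tested were higher, their sum running from 55.2 to 118 FPKM in the knockout and from 14 to 48.4 FPKM in the controls, with Csf3r and Elane below 1 FPKM in all of them. Both tested mast and basophil markers were higher, 188 to 798 against 75.1 to 334 FPKM in sum, and Mcpt1 and Cma1 were below 1 FPKM throughout. The 1 tested megakaryocyte marker, Itga2b, was higher (61.0 ± 27.2 against 5.37 ± 5.70 FPKM, SD), with Ppbp, Pf4 and Gp9 below 1 FPKM in all 47 libraries. Of 3 tested dendritic markers 2 were higher (Irf8 and Flt3), 8.07 to 17.6 against 5.93 to 15.4 FPKM in sum, and H2-Aa was below 1 FPKM in both groups. Of 3 tested B cell markers 2 were lower (Vpreb1 and Cd79b), 6.08 to 14.8 against 8.78 to 21.3 FPKM in sum, with Cd79a and Ebf1 below 1 FPKM in both. Of 8 T-lineage markers 6 were lower, and none of the 8 tested stromal markers was called. The part of these cell types in the differences was not tested, and in bulk RNA a larger share of cells of a type and more RNA per cell cannot be told apart.

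Of 11 tested G protein subunits 3 were higher: Gna11 (0.62, adjusted p = 0.000124), Gng2 (0.45, adjusted p = 0.0176) and Gng10 (0.44, adjusted p = 0.0223, all limma). Of 12 tested genes that switch receptors off, 2 were higher, the regulators of G protein signalling Rgs3 (18.9 ± 6.40 against 6.15 ± 2.83 FPKM, SD, by 1.48) and Rgs18 (by 0.78), and Rgs10 was lower (by -0.92). Of 27 tested migration effectors Pik3r5, a regulatory subunit of the lipid kinase PI3K gamma, was lower (15.7 ± 5.00 against 31.0 ± 8.99 FPKM, SD, by -0.96, adjusted p = 1.3e-06), and none was higher. Of 12 adhesion partners the integrin chain Itgb7 (78.3 ± 16.8 against 34.0 ± 14.7 FPKM, SD, by 1.27, adjusted p = 1.42e-05) and Icam1 (by 0.77) were higher. Of the atypical receptors 2 were tested, and Ccrl2, which presents the attractant chemerin, was higher (by 0.62, adjusted p = 0.000791). Of 2 tested chemokines with other symbols none was called. Median differences of these lists lay between -0.22 and 0.23, beside 0.04 over all genes.

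The knockout difference was larger with reduced IL-7 for 3 members. The interaction of genotype and IL-7 was positive for Ccl5 (2.69, SE 0.41, adjusted p = 0.00107), Cxcr5 (1.94, SE 0.35, adjusted p = 0.0043) and Ccr8 (2.08, SE 0.42, adjusted p = 0.0144, all limma), 3 of 24 members tested, where 0.645% of all 14271 genes tested were called in that direction. Ccl5 with reduced IL-7 stood at 14.1, 22.5, 22.4 and 7.22 FPKM in the 4 knockout libraries and at 1.45, 0.253 and 0.85 FPKM in the 3 controls. With standard IL-7 it was 7.34 ± 2.13 FPKM (SD, n = 10) in the knockout and 5.34 ± 2.02 FPKM (SD, n = 8) in the controls. The knockout library of 7.22 FPKM, on DL4, is the one with reduced IL-7 outside the earliest title year, and it lay within the range of the standard cultures. Ccr8 with reduced IL-7 was at 5.25, 7.12, 6.81 and 3.57 FPKM in the knockout and at 0.375, 0.286 and 0.716 FPKM in the controls. With standard IL-7 it was 2.29 ± 1.17 and 2.36 ± 1.35 FPKM (SD). Cxcr5 with reduced IL-7 was at 30.8, 37.4, 40.3 and 18.1 FPKM against 2.75, 2.64 and 0.258 FPKM, and 20.1 ± 3.14 against 5.22 ± 1.45 FPKM (SD) with standard IL-7. Without the first DL4 control Ccl5 passed (2.64, adjusted p = 0.0132), and Cxcr5 (1.41) and Ccr8 (2.10) did not (adjusted p = 0.0591 for each, limma). Without the first DL1 knockout library the Ccr8 interaction did not pass either (adjusted p = 0.0797, limma). Apart from that single DL4 library, reduced IL-7 and the earliest title year cannot be told apart. A DL4 knockout library of the same title date with standard IL-7 had 21.2 FPKM of Cxcr5, 6.7 FPKM of Ccl5 and 3.79 FPKM of Ccr8. The DL4 library with reduced IL-7 had 18.1, 7.22 and 3.57 FPKM, and no control with reduced IL-7 shares that date. Quantile normalization moved the median interaction of all genes from 0.12 to -0.02 and the genes called from 92 higher and 8 lower to 46 and 13, with the 3 members still called.

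Within subsets of these libraries the share of all genes called was smaller, at 11% with standard IL-7, 7.89% on DL1 and 3.46% on DL4, 3.77%, 2.06% and 6.12% in the 3 title years and 0.402% in the pairs titled DN2, against 16.9% with all libraries. With reduced IL-7 alone 7 members were called (3.34% of all genes), and in the earliest title year 7 as well. Ccr8, Cx3cr1, Ccr1 and Cxcr6 reached 1 FPKM in 4 knockout and 0 control libraries with reduced IL-7. They met the filter there through the knockout alone, so any of them among the 7 is a description and no support. With standard IL-7 alone 2 members were called, Cxcr5 (1.80, adjusted p = 6.74e-08) and Ccr2 (1.82, adjusted p = 0.00256), and Ccl5 (0.41), Ccr4 (0.49) and Cx3cr1 (0.55) did not pass (adjusted p = 0.181, 0.0878 and 0.0674, limma). By title year, Cxcr5 differed by 4.04 in the earliest (3 against 3 libraries), by 2.31 in the middle (4 against 2) and by 1.61 in the latest (7 against 6), with adjusted p of 0.00108, 0.00279 and 4.68e-06 (limma). Ccr2 differed by 3.77, 0.89 and 2.17 in the same years and did not pass in the middle one (adjusted p = 0.197). Ccl5 differed by 3.38, -0.16 and 0.62 and passed in the earliest year (adjusted p = 0.00114, 0.726 and 0.119). On DL4 alone Cxcr5 (3.21) and Ccr4 (0.94) passed, and Ccr2 did not (1.48, adjusted p = 0.106). In the 3 pairs in which both cells were titled DN2, harvests of the same cultures on days 9, 10 and 12, no member passed: Cxcr5 differed by 1.54 (adjusted p = 0.0512) and Ccr2 by 2.30 (adjusted p = 0.082, limma). The interactions of genotype with stroma and with culture day called no gene and no member. At an unadjusted p under 0.05 these 2 fits gave 338 and 312 genes (2.37% and 2.28% of those tested), with Cxcr5 and Ccl2 for stroma and Ccr7 and Ccl25 for day.

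Knockout cells were also compared with DN2a cells without a Cre virus, the sort phenotype that the protocol gives for the knockout. Bcl11b was at 0.1 to 15.1 FPKM in these DN2a libraries. In this comparison 7 members were higher and 2 lower in the knockout, among 18 tested. The thymic homing receptors Ccr9 and Ccr7 were among the higher ones, and the myeloid-type ligands Ccl9 and Ccl3 were lower. Ccl5 was not called. Both groups had DL1 stroma and standard IL-7, with 7 knockout and 4 DN2a libraries, and differed in Cre virus, mouse line, culture days and title years. By title 5 of these knockout libraries were DN2, 1 was DN2b and the last was DN2a, so the titled stage differs as well. The knockout harvests of the same cultures on days 9, 10 and 12 are among the 7. Another 2 of the 7, of days 9 and 12, have title dates as far apart as their days and may share a culture too. All were fitted as separate libraries, and no fit of this comparison averaged or blocked them, so the p-values treat them as independent. Among all 12979 genes tested 9.67% were higher and 7.25% lower. The 7 knockout libraries also entered the comparison with controls, so the 2 sets of values are not independent.

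Cxcr5 was at 0.1, 0.1, 6.27 and 2.54 FPKM in the DN2a libraries and at 15.5 to 25.5 FPKM (median 20.2 FPKM) in the knockout. The difference was 3.12 (SE 0.42, adjusted p = 0.000644, limma), and the ranges were separate. Bcl9l, on the other strand, differed by 0.83 (adjusted p = 0.0213). Ccr9 was at 0.1, 5.15, 6.87 and 2.73 FPKM in DN2a cells and at 14.1 to 32.4 FPKM in the knockout, a difference of 2.40 (SE 0.43, adjusted p = 0.00372). Lztfl1, a ciliary trafficking gene that overlaps Ccr9 on the other strand, was not called (1.22, SE 0.78, adjusted p = 0.294). Over the 47 libraries Lztfl1 followed Ccr9 (Spearman 0.66). Reads from the stretch they share cannot be assigned to one of them, and the part of Lztfl1 in the Ccr9 value was not tested. Ccr7 was at 4.61, 7.20, 8.61 and 9.06 FPKM in DN2a cells and at 15.9 to 27.1 FPKM in the knockout (1.52, SE 0.19, adjusted p = 0.000404). Every knockout library lay above every DN2a library for these receptors.

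Ccr4 was at 7.55, 5.37, 5.39 and 7.02 FPKM in DN2a cells and at 8.39 to 18.2 FPKM in the knockout (0.79, adjusted p = 0.0224). Cx3cr1 was at 0.214, 0.689, 1.90 and 1.30 FPKM and at 1.92 to 7.54 FPKM (1.08, adjusted p = 0.0281), and Csrnp1, within its span, was higher as well (0.87, adjusted p = 0.0308). Xcl1 was at 0.1, 0.1, 0.222 and 0.1 FPKM, that is, hardly detected in DN2a cells, and at 0.398 to 2.01 FPKM in the knockout (0.90, adjusted p = 0.0177). It reached 1 FPKM in 4 knockout and 0 DN2a libraries and so met the filter through the knockout alone; without the filter its adjusted p was 0.0173 (limma). These 3 genes were also separate between the groups, but each lost its call when 1 of certain DN2a libraries was left out (Ccr4 without replicate 2 or 3, Cx3cr1 without replicate 1, 2 or 4, Xcl1 without replicate 4; highest adjusted p = 0.0674, 0.0895 and 0.052). Ccr2 was at 0.1, 9.19, 11.1 and 9.73 FPKM in DN2a cells and at 7.54 to 84.9 FPKM in the knockout (2.35, SE 0.70, adjusted p = 0.0352). It overlapped, and it lost its call without any of 7 of the 11 libraries (knockout replicates 2, 5, 7 and 8, DN2a replicates 1, 2 and 4; highest adjusted p = 0.0965), with a pseudocount of 0.1 (adjusted p = 0.0579) and with knockout libraries of days 9 to 10 alone (adjusted p = 0.196). NK and innate lymphoid markers summed to 398 to 751 FPKM in DN2a cells and to 747 to 1297 FPKM in the DL1 knockout libraries, and their part in these differences was not tested.

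Of the ligands, Ccl9 was at 6.00, 9.08, 9.21 and 7.47 FPKM in DN2a cells and at 2.19 to 3.54 FPKM in the knockout. It was lower by -1.24 (SE 0.17, adjusted p = 0.000598, limma), with separate ranges. Ccl3 was at 2.21, 1.5, 5.13 and 2.90 FPKM in DN2a cells and at 0.1 to 1.82 FPKM in the knockout (-1.32, SE 0.31, adjusted p = 0.014), and these ranges overlapped. Ccl5 was at 6.61, 7.38, 16.2 and 7.36 FPKM in DN2a cells and at 4.41 to 10.9 FPKM in the knockout, a difference of -0.24 with an interval of -0.81 to 0.33. In all, 9 of the 30 entries had separate ranges, as did 12.5% of all 17754 genes, and 16.9% of the genes tested were called in either direction. Ccr1 (0.55, adjusted p = 0.0665), Ccr8 (0.93, adjusted p = 0.0504) and the first Ccl25 entry (0.60, adjusted p = 0.0538) came close to the threshold without passing.

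**Figure D3:**
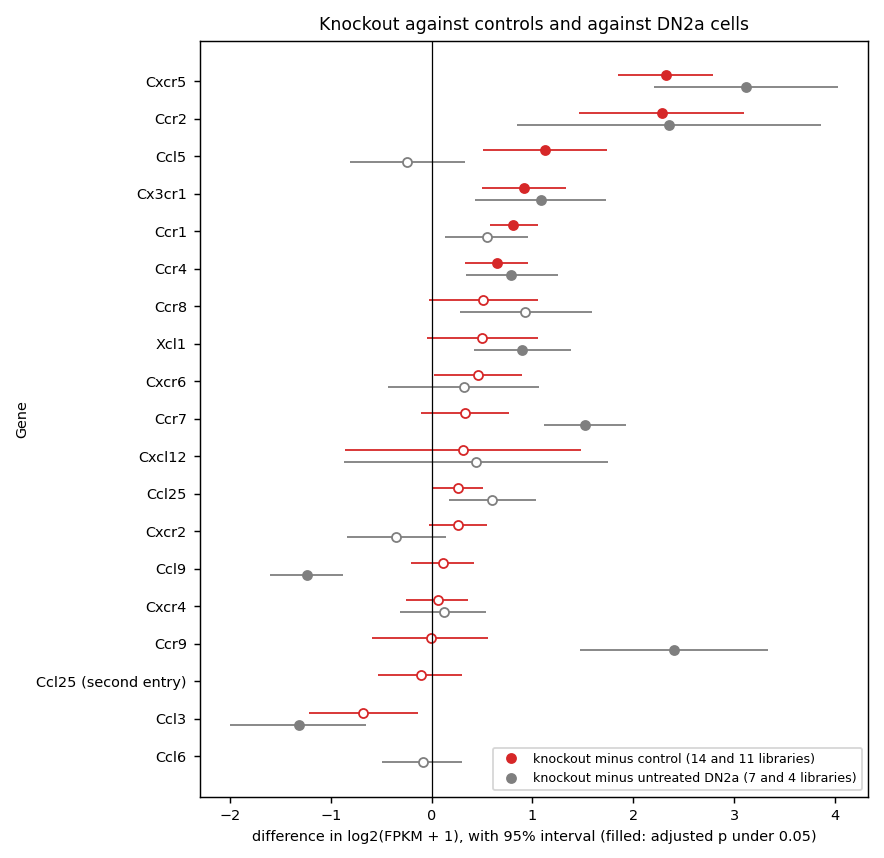
Difference in log2(FPKM + 1) with its 95% interval for each tested member, knockout minus control (red, 14 and 11 libraries) and knockout minus untreated DN2a (grey, 7 and 4 libraries, 7 of them shared with the red set); filled points passed an adjusted p under 0.05. Ccr9 is at -0.01 against controls and at 2.40 against DN2a cells, Ccl9 at 0.11 and -1.24, and Cxcr5 at 2.32 and 3.12.

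The step from DN2a to DN2b was compared in the untreated cells. The ligands Ccl9 and Ccl5 were higher in DN2a cells, and no member was called higher in DN2b cells, among 17 tested. Among all 13364 genes tested 4.23% were higher in DN2a and 9.23% lower. Ccl9 was at 6.00 to 9.21 FPKM in the 4 DN2a libraries, against 2.99 and 1.6 FPKM in the DN2b libraries (1.46, SE 0.26, adjusted p = 0.0211, limma). With the replicate number as a block it no longer passed (adjusted p = 0.0909, limma). Ccl5 was at 6.61 to 16.2 FPKM against 0.1 and 1.41 FPKM (2.59, SE 0.43, adjusted p = 0.0177). No member was called without the first DN2b library (the one titled DN3, with Ccl5 at 2.02 and Ccl9 at 1.77) or without the DN2a library of day 4.5 (replicate 4). Of all genes these fits called 0.431% and 1.76%. The fits without a DN2b library keep 1 on that side, which is assumed to vary as the DN2a libraries do. Without the second DN2b library Ccl9 lost its call (adjusted p = 0.0812) and Ccr7 gained one (2.89, adjusted p = 0.0197; 5.71% of all genes). Quantile normalization moved the median difference of all genes from -0.07 to 0.05 and the genes called from 565 higher and 1234 lower to 662 and 567, with both ligands still called. The myeloid markers summed to 92.5 to 108 FPKM in DN2a and to 19.2 and 29.2 FPKM in DN2b cells, and their part was not tested. The stage means of Ccr9 (3.71 and 20.9 FPKM), Ccr7 (7.37 and 15.8 FPKM) and Ccr2 (7.52 and 4.47 FPKM) rest on DN2b libraries that differ more from each other than the means do, and their intervals include 0.

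Blocking Notch for 12 hours left no member called, 0 of 14 tested, and no gene of the 12783 tested was called (0%). At an unadjusted p under 0.05 limma gave 297 genes (2.32%) and no member. These counts and the intervals below are from the fit with stage as covariate, which does not use the pairs. With the 4 pairs as blocks no gene was called either (0 of 12783). The 4 pairs of treated and untreated cells gave some common directions without passing: Ccl5 was higher with GSI in 4 of 4 pairs (6.61 to 16.5, 7.38 to 15.3, 0.1 to 0.243 and 1.41 to 2.46 FPKM; 0.72, interval -0.14 to 1.57). Ccr4 was lower in 4 of 4 pairs (7.55 to 3.47, 5.37 to 2.29, 5.21 to 3.12 and 14.4 to 14.3 FPKM; -0.62, interval -1.66 to 0.41). Ccl9 was higher in 4 of 4 pairs (0.31, interval -0.20 to 0.81). Ccr9 was at 40.5 FPKM untreated and 133 FPKM with GSI in one DN2b pair, at 1.35 and 14.7 FPKM in the other, and at 0.1 FPKM in both libraries of one DN2a pair.

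Ex vivo thymic DN3 cells were set beside cultured DN2b cells, a comparison in which stage, tissue, age and culture change together. Cxcr5 was higher in the thymic cells, at 2.78, 5.10 and 5.04 FPKM against the floor in both DN2b libraries (2.24, SE 0.29, adjusted p = 0.0313, limma), and was the one member called of 14 tested, where 0.141% of all 13495 genes were called higher and 0.104% lower. It met the filter through the thymic libraries alone, so the call is a description and no support. It lost the call without the second DN2b library, or the second or the third thymic library (highest adjusted p = 0.231), and without the filter on low values (adjusted p = 0.0584). Ccl27a, a skin chemokine, was at 11.4, 7.45 and 17.8 FPKM in thymic DN3 cells against 5.32 and 0.634 FPKM, and Ccr4 at 2.15, 0.1 and 0.1 FPKM against 5.21 and 14.4 FPKM. Neither passed (1.96, adjusted p = 0.215, and -2.64, adjusted p = 0.113). Leaving out a DN2b library leaves 1 on that side, which is then assumed to vary as the thymic libraries do. Without the first DN2b library 5 members were called (2.25% of all genes), Ccl27a and Ccr9 among the 3 higher and Ccr4 and Ccr7 the lower ones, and without the second Ccr2 was the one called (2.83, adjusted p = 0.017; 0.332% of all genes). Ccl27a overlaps Il11ra1 on the other strand, and the 2 cannot be told apart in the shared stretch.

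In cultured DN3 cells with intact Bcl11b no member was called against the ex vivo cells by limma (0 of 15 tested, 0.0832% of all genes), and 6 members had an unadjusted p under 0.05 (1939 of 13215 genes, 14.7%). Cxcl12 was at 8.43 and 43.9 FPKM in culture and at 6.87, 1.43 and 1.38 FPKM ex vivo (2.53, adjusted p = 0.162). Ccr4 was at 3.32 and 5.17 FPKM against 2.15, 0.1 and 0.1 FPKM (1.72, adjusted p = 0.16), and Ccl9 at 3.14 and 2.46 FPKM against 1.28, 0.259 and 0.1 FPKM (1.37, adjusted p = 0.145). Ccr9 was at 22.6 FPKM on day 3 and at the floor on day 4, against 34.5, 76.3 and 17.8 FPKM ex vivo. Leaving out the first ex vivo library gave 2 calls (Ccr4 and Ccl9; 0.55% of all genes). Leaving out the day 3 library, which leaves 1 cultured library, gave 2 as well (Ccr9 lower and Cxcl12 higher; 0.817% of all genes). Quantile normalization moved the median difference of all genes in this comparison from -0.21 to -0.05 and the genes called from 9 higher and 2 lower to 3 and 0.

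**Figure D4:**
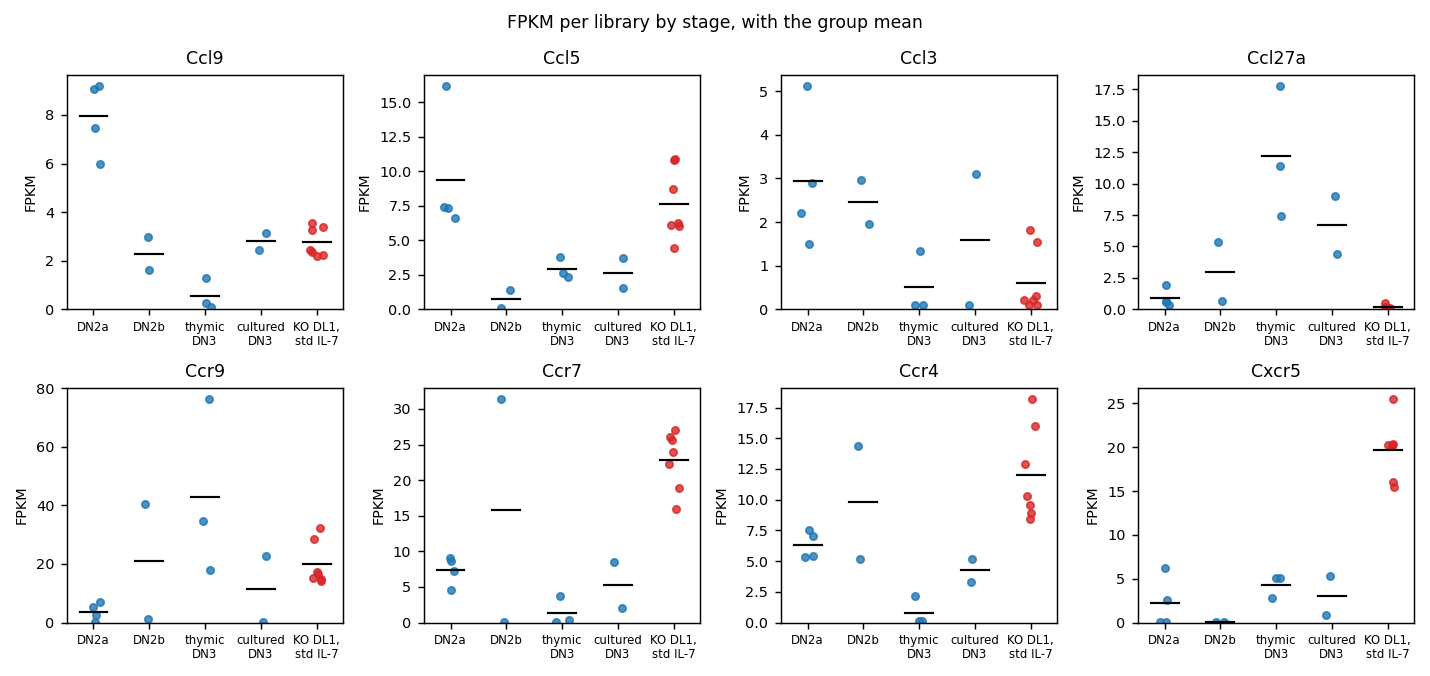
FPKM of 8 members in each library of untreated DN2a (4) and DN2b (2) cells, ex vivo (3) and cultured (2) Bcl11b-intact thymic DN3 cells, and knockout cells on DL1 with standard IL-7 (7, red), with the group means as lines. Ccl9 is highest in DN2a cells (6.00 to 9.21 FPKM), Ccl27a in thymic DN3 cells (7.45 to 17.8 FPKM), and the 2 DN2b libraries lie far apart for Ccr9 and Ccr7.

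The remaining conditions had 1 library on at least 1 side and carry no test, so they are described by members that differed by more than 2-fold on the FPKM + 1 scale among those at 1 FPKM or more in either library. Cxcr5 was higher by that measure in the library labelled knockout in each of the 4 settings. It was at 19.4 against 2.78 FPKM in LckCre thymocytes, at 33.9 against 14.8 FPKM in bone marrow cultures, at 36.0 against 7.05 FPKM in empty-vector cultures and at 21.9 against 5.27 FPKM in cultured thymic DN3 cells. The thymic pair compares knockout cells of the DN2 stage with control cells of the DN3 stage. In it 6 of 19 members were higher (4.73% of all genes were) and 2 lower (3.56% of all genes): besides Cxcr5 these were Xcl1 (7.93 against 1.40 FPKM), Ccr7 (12.6 against 3.76 FPKM), Ccr4 (9.36 against 2.15 FPKM), Ccr8 and Ccr2 (21.1 against 7.92 FPKM), with Ccr9 (9.02 against 34.5 FPKM) and Ccl27a (2.34 against 11.4 FPKM) lower. Marker sums in this pair were 376 against 71.7 FPKM for NK and innate lymphoid, 65.4 against 23.1 FPKM for myeloid and 1132 against 2973 FPKM for T-lineage genes, and their part was not tested. In the bone marrow pair, whose Bcl11b levels were alike, 3 of 19 members were higher (1.46% of all genes), Ccr9 at 18.7 against 6.45 FPKM among them, and Ccr2 was at 38.1 and 33.5 FPKM.

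Deletion induced in thymic DN3 cells, followed by 4 days of culture, gave 10 of 18 members higher (10.4% of all genes) and 1 lower (4.69%). The receptors Ccr4 (24.9 against 5.17 FPKM) and Ccr2 (20.0 against 5.64 FPKM) and the ligands Xcl1 (7.60 against 0.223 FPKM) and Ccl5 (10.4 against 1.54 FPKM) were among the higher ones, and Ccl27a (0.44 against 4.37 FPKM) was the lower one. Ccr9 was at 27.0 FPKM against the floor, and the day 3 control had 22.6 FPKM. NK and innate lymphoid markers summed to 590 FPKM in that knockout library and to 55.5 and 128 FPKM in the cultured controls, and their part in these values was not tested. In the empty-vector cultures 7 of 22 members were higher (5.07% of all genes) and Ccr9 was lower, with Ccr2 at 69.4 against 9.73 FPKM and Ccl5 at 28.9 against 5.90 FPKM, beside NK marker sums of 1371 and 350 FPKM. Ccr9 was at 24.0 against 57.7 FPKM (3.19% of all genes were lower). In knockout cells given the Bcl11b vector for 36 hours Cxcr5 was at 17.1 FPKM, against 36.0 FPKM with the empty vector, and Ccl9 at 1.37 against 6.66 FPKM, 2 of the 3 members that were lower by over 2-fold among 23 (1.64% of all genes), the other being Cxcl10. Knockout libraries on DL1 with standard IL-7 and no such vector had 15.5 to 25.5 FPKM of Cxcr5, a range that holds the Bcl11b-vector value and not the empty-vector one. Ccl4 was higher (7.20 against 2.76 FPKM; 1.87% of all genes), Ccr2 was at 43.3 against 69.4 FPKM and Ccl5 at 34.9 against 28.9 FPKM.

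Some members varied together across the 47 libraries, which share the normalization and differ in many conditions at once. For each member that reaches 10 FPKM the most similar of the other 24 expressed members was taken by Spearman correlation. The closest to Ccr2 and to Cxcr5 was Cx3cr1 (0.88 and 0.79), that to Ccr7 was Ccr8 (0.74) and that to Ccr4 was Ccr7 (0.71). Among ligands, Xcl1 was closest to Cxcl10 (0.77), Ccl3 to Ccl4 (0.72) and Ccl9 to Ccl3 (0.54), and Ccl5 was closest to the receptor Ccr1 (0.71). The best values were lower for Ccr9 (Ccl25, 0.52), Ccl27a (Ccl4, 0.49), Cxcl12 (Ccl7, 0.49) and Cxcr4 (Cxcr6, 0.48). Cxcl12, which OP9 and other stromal cells secrete, followed the summed level of 10 stromal markers (Spearman 0.70 over 47 libraries). Of these markers Dcn was below 1 FPKM in all 47 libraries, and Postn reached 1 FPKM in the DL4 knockout group alone. Cxcl12 was at 1.38 to 6.87 FPKM in the uncultured thymic DN3 cells, whose stromal sum was 27.9 to 42.7 FPKM. It reached 51.5 FPKM in a DL4 knockout culture with a stromal sum of 119 FPKM. The lowest stromal sum, 24.1 FPKM, was that of a control culture on DL1 with 3.96 FPKM of Cxcl12. The part of carried-over stromal RNA in the Cxcl12 values was not tested.

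**Figure D5:**
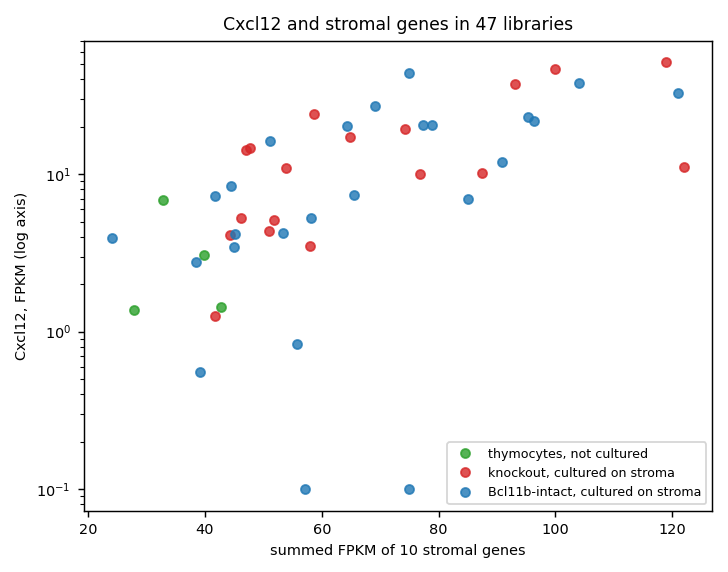
Cxcl12 in FPKM (log axis) against the summed FPKM of 10 stromal marker genes, 1 point for each of the 47 libraries, coloured by genotype and culture. Libraries with higher stromal sums mostly have more Cxcl12, with 2 Bcl11b-intact libraries at the floor of 0.1 FPKM.

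By position, several members are neighbours in the RefSeq annotation, where only order is used here. On chromosome 9 Ccr9, Cxcr6, Ccr1 and Ccr2 follow each other, with 1 or 2 coding genes between neighbours. In the knockout comparison Ccr1 and Ccr2 were called higher, and Cxcr6 and Ccr9 were not. Cx3cr1 and Ccr8 are direct neighbours, and of them Cx3cr1 was called. On chromosome 11 Ccl5, Ccl9, Ccl6, Ccl3 and Ccl4 follow each other, and the knockout differences of those tested were 1.12 (Ccl5, called), 0.11 (Ccl9) and -0.68 (Ccl3), the last 2 not called. Whether these differ from each other was not tested.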

How the data were processed

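RNA-seq values were used as FPKM, as the authors deposited them in 1 table of 17754 genes. Per the file headers and its name, the values had been adjusted with ComBat, a batch correction. No source used here names its batches, the covariates it kept, the aligner or the counting tool. The adjustment acts on every difference given here, and how much was not tested. The build is mm9, per the submitters' processing notes. FPKM carries no depth, so the depth is unknown and no counting interval is given. Columns of 47 labelled libraries were used, and 16 columns that match no label were not. Between 11756 and 13370 genes per library reached 1 FPKM, and column totals ran from 581205 to 1005744.

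Differences were tested with limma 3.58.1 in R 4.3.3 on log2(FPKM + 1) with a mean-variance trend, two-sided, with Benjamini-Hochberg adjustment over all genes that reached 1 FPKM in n or more of the libraries in the fit, n being the size of the smaller group. On this scale the differences of low genes are understated. Of the genes that fit the naming rule 1 is not reported here. Members and lists were chosen with earlier results of these data known. Values are given for each member that was called in a comparison or reached 10 FPKM, and listed genes of the pathway are named where called. Tested on simulated data for the knockout comparison (12557 genes), 92% of 2-fold and 99% of 4-fold changes were recovered. For ex vivo DN3 against DN2b cells this was 2% and 45%. The changed genes were drawn from those with a mean log2(FPKM + 1) over 2, and the noise was independent between libraries. These shares therefore do not hold for lower members such as Ccr1, or where libraries are related.

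Matching title date, stroma and IL-7 paired 9 knockout and control libraries. The correlation of their deviations from group means ran from -0.052 to 0.514. For the 4 GSI pairs, taken from the titles, it was 0.648 in one stage and 0.706 in the other. Both pairs of a stage give the same value by construction. Each fit was repeated without the filter, after quantile normalization, with a pseudocount of 0.1 and without each library, and the knockout fit also without covariates and within IL-7 levels, stromas and title years. Paired fits used the pairs as blocks. The block of 7 culture pairs, in which repeat harvests were averaged, and the fits without libraries of number 1 were chosen after seeing the data. Promoters came from RefSeq, GRCm38.p6, in which 22 member genes had an entry.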

Additional observations from a re-analysis of the deposited data

Results flagged for a closer look

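In groups of 4 to 10 libraries, 5 of 60 gene and group combinations had a highest library that stood apart from the rest by more than Dixon's 95% critical value for the gap as a share of the range. For normally distributed values chance flags about 1 in 20 groups. FPKM values with a floor need not be normal, so the rate here is not known. In DN2a cells the third library had Ccl5 at 16.2 FPKM (next 7.38 FPKM, gap share 0.920) and Xcl1 at 0.222 FPKM, the others being at the floor. In controls on DL1 the seventh library had Ccl9 at 5.58 FPKM (next 2.67 FPKM, gap share 0.666). In the knockout, the first DL4 library had Cx3cr1 at 6.64 FPKM (next 3.47 FPKM, gap share 0.700) and the first DL1 library had Ccl27a at 1.87 FPKM (next 0.476 FPKM, gap share 0.788). Both of these knockout libraries had reduced IL-7.

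The knockout difference itself differed between IL-7 levels for Cxcr5 by 1.94 (SE 0.35, adjusted p = 0.0043), for Ccl5 by 2.69 (SE 0.41, adjusted p = 0.00107) and for Ccr8 by 2.08 (SE 0.42, adjusted p = 0.0144, limma), in log2(FPKM + 1). Cxcr4 moved in opposite directions with GSI in the 2 stages, with mean differences of -0.21 in DN2a and 0.27 in DN2b cells, 2 pairs each. The gap between them, -0.48, was not tested.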

How the results depend on the processing

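A pseudocount of 0.1, quantile normalization, no filter and no covariates left the number of members called within 1.5 times that reported in every comparison, except that without the filter the ex vivo DN3 comparison gave 0 in place of 1. For knockout against control, 6 members were called with all libraries (16.9% of all genes tested), 2 with standard IL-7 only (11%), 2 on DL4 only (3.46%), 1 in the middle title year (2.06%), 2 in the latest (6.12%) and 0 in the 3 pairs titled DN2 (0.402%). Ccl5 differed by -0.16 in the middle year (adjusted p = 0.726, limma). With the 9 date pairs as a replicate block 4 members were called (10.3% of all genes; 659 higher and 623 lower, against 1242 and 900), with Ccl5 lost and Ccr1 not tested. With 7 culture pairs as the block 3 were called (6.87%; 501 and 357 genes), with Ccl5 (adjusted p = 0.126) and Ccr4 (adjusted p = 0.0713) lost. The pair block changed no other call of this comparison and none under GSI (0 members called). Untreated DN2a against DN2b gave 2 members, 1 with the replicate block, which lost Ccl9 (1.38, adjusted p = 0.0909), and 0 without both libraries of number 1.

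Leaving out 1 library gave 5 to 7 members for the knockout comparison (14.4% to 17.6% of all genes). For knockout against DN2a this ran from 6 without DN2a replicate 4 (8.73%) to 11 without knockout replicate 3 (18%). Leaving out a DN2a library gave 0 to 2 for DN2a against DN2b (1.76% to 10.6%). Leaving out an ex vivo library gave 0 to 2 for ex vivo DN3 (0.0451% to 0.827%) and 0 to 2 for cultured DN3 (0.0077% to 0.55%). The IL-7 interaction gave 1 to 4, beside 0.645% of all genes called higher with all libraries. Leaving out 1 library gave 0 for GSI, stroma and day. The causes were not tested. Knockout and control cells differ in sort gate and mouse line as well as in genotype, and a member at the floor has no bound on its fold. The DN3 and DN2b comparisons have 2 or 3 libraries a group, and in DN3 a change of 2-fold was seldom recovered in simulated data.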
